A study of Mus musculus with 16 samples.

Results

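The levels of 10 transcription factors that set effector and memory fate were compared between mouse CD8+ T cells that had received a guide against Tardbp and cells that had received a scrambled guide. They were picked by gene symbol in the GENCODE M21 annotation as Tbx21, Eomes, Prdm1, Bcl6, Zeb2, Tcf7, Lef1, Bach2, Runx3 and Tox, which makes 10 of the 55536 annotated genes, and all 10 were among the 16650 genes with enough counts to test. The cells were OT-I CD8+ T cells, whose transgenic receptor recognises SIINFEKL, a peptide of ovalbumin, and the methods give the donors as deficient in Rag1 or Rag2. They had been electroporated with Cas9 and either a scrambled guide (Control gRNA, 8 libraries) or a guide against Tardbp (Tardbp gRNA, 8 libraries), and moved into C57BL/6J mice. The animals of both groups then received SIINFEKL with agonist antibodies to OX40 and 41BB, and the transferred cells were sorted from spleen and lymph nodes by CD8 and the donor's CD45 markers, at day 4 by the labels and slightly earlier by the methods. The study used mice of both sexes. The study's text describes the cells as taken from individual recipient mice, so the spread between libraries of a group includes that between animals. Edited cells were not selected as clones, so a library holds whatever mixture of alleles the electroporation left.

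After antigen contact, a CD8+ T cell can turn into a short-lived killer cell or keep the capacity to persist and to self-renew. Tbx21 (T-bet), Prdm1 (Blimp-1) and Zeb2 are known to drive terminal effector differentiation, while Tcf7 (TCF-1), Lef1, Bach2 and Bcl6 keep naive, stem-like or memory properties, and Bach2 and Bcl6 are repressors that oppose Prdm1. Eomes shares targets with Tbx21 and is tied to memory, Runx3 keeps the CD8 lineage and opens effector genes, and Tox is induced by strong or persistent receptor signals. The product of Tardbp, TDP-43, binds RNA and influences splicing and the choice of RNA ends.

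Tardbp itself lay between 172 and 207 CPM (counts scaled to a common library size, with TMM factors) in the Control gRNA libraries and between 110 and 147 CPM in the Tardbp gRNA libraries. The groups did not overlap, and the log2 fold change was -0.51 ± 0.06 (SE, edgeR adjusted p = 8.1e-07). A cut in the gene need not remove its RNA, so this level is a check of the labels and not of the protein. By immunoblot of pooled cells, the study reports that those given the Tardbp guide did not make the protein. Estimated counts in annotated genes ran from 56016533 to 94801105 per library. The RNA concentration before dilution, deposited with no unit, was 34.9 to 197.1 in Control gRNA against 10.1 to 24.0 in Tardbp gRNA, so concentration and guide cannot be told apart. Markers of the CD8+ T cell were high in every library, with Cd3e, Cd3d, Cd3g, Cd8a, Cd8b1 and Thy1 summing to 2444 to 3063 CPM in Control gRNA against 3615 to 4746 CPM in Tardbp gRNA. Cd4 stayed under 1 CPM on average in both groups (0.230 and 0.220 CPM). The 6 red cell markers summed to 0.442 to 17.4 CPM in Control gRNA against 9.02 to 181 CPM in Tardbp gRNA, and all 4 that were tested rose. Of 4 CD4 T cell markers 0 were called, at sums of 4.39 to 20.7 CPM and 6.15 to 15.6 CPM. The part of these other cells in the results was not tested. The sum over 10 B cell markers also separated the groups, at 395 to 474 CPM in Control gRNA against 565 to 734 CPM in Tardbp gRNA.

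Of the 10 factors, 7 were higher and 2 were lower in Tardbp gRNA at an edgeR adjusted p under 0.05, and Runx3 did not pass. The factors of the memory side, Tcf7, Lef1, Bach2 and Bcl6, rose, and of the effector drivers Tbx21 and Prdm1 fell while Zeb2 rose, a call that several alternatives below lose. Eomes and Tox rose as well. Over all genes tested, 46.7% were called in either direction, 23.5% higher and 23.3% lower, so a call by itself is common in this comparison. Tcf7 and Lef1 were the 2 factors whose groups of libraries did not overlap, against 16.9% of all genes. The median log2 fold change was 0.50 over the 10 factors and 0.05 over all genes tested.

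**Figure D1:**
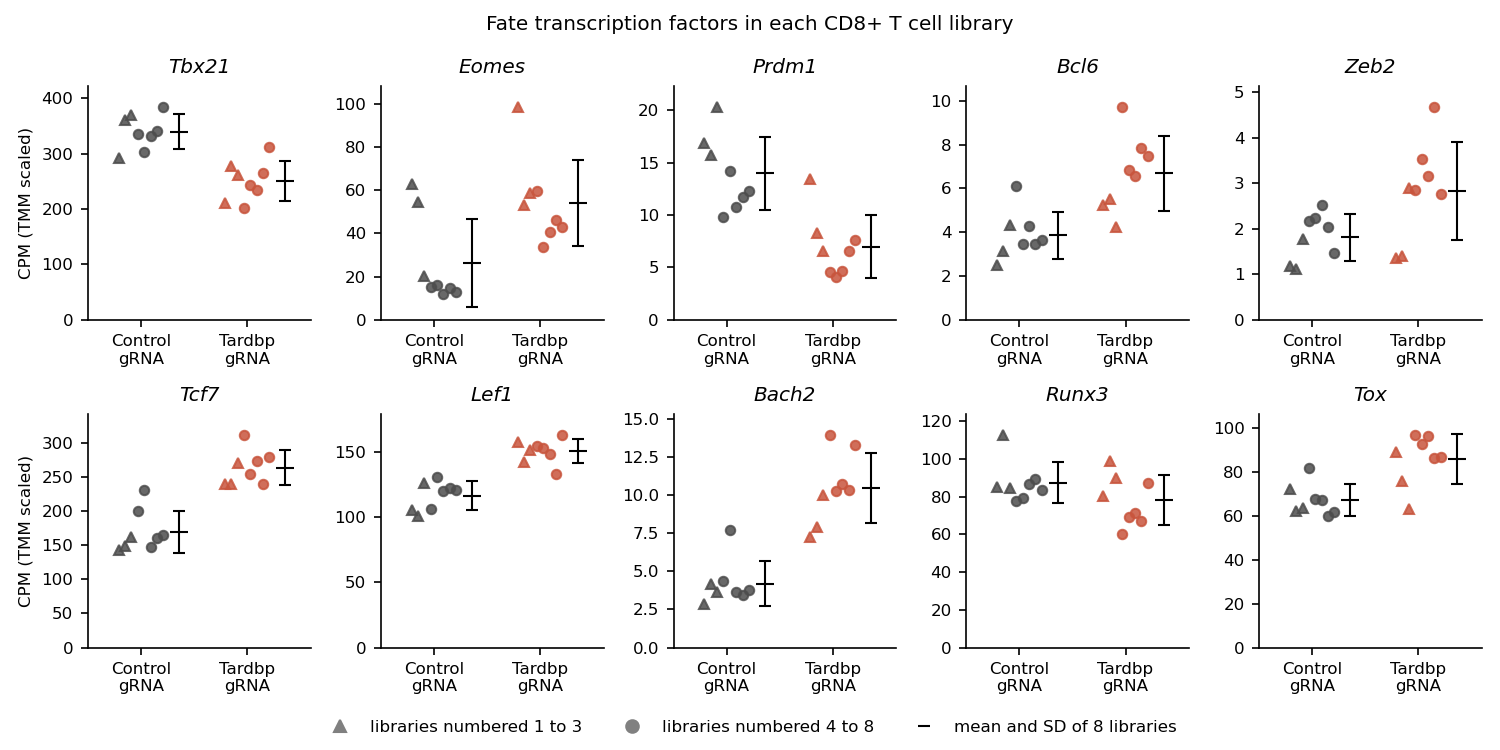
Level of each factor in each library, in TMM-scaled CPM on linear axes that start at 0. Triangles are libraries numbered 1 to 3, circles those numbered 4 to 8, and bars give the mean and SD of 8 libraries. All Tardbp gRNA points lie above all Control gRNA points for Tcf7 and Lef1, and 2 Control gRNA libraries of Eomes, at 54.4 and 62.9 CPM, lie among the Tardbp gRNA points.

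Among the drivers of effector differentiation, Tbx21 was the most abundant. Tbx21 (chr11:97098071-97115331, minus strand, GRCm38) encodes T-bet, which switches on genes of killing and of interferon gamma. In Control gRNA its lowest, median and highest values were 293, 339 and 384 CPM, and in Tardbp gRNA 201.2, 252 and 312 CPM. Only the highest Tardbp gRNA library reached into the Control gRNA range. The means were 340 ± 31.4 and 251 ± 36.3 CPM (SD, n = 8 each), and the log2 difference was -0.44 ± 0.08 (SE; adjusted p = 0.00020 in edgeR). With libraries numbered 1 to 3 alone the size was similar (-0.48) but the adjusted p was 0.055.

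Prdm1 (chr10:44437177-44528501, minus strand) encodes Blimp-1, a repressor of memory genes. It had a lowest, median and highest value of 9.86, 13.3 and 20.3 CPM in Control gRNA against 4.05, 6.61 and 13.4 CPM in Tardbp gRNA. A single Tardbp gRNA library, number 1 at 13.4 CPM, lay within the Control gRNA range, and the next highest was 8.27 CPM. Prdm1 was the factor that fell most, with means of 14.0 ± 3.52 and 6.97 ± 3.01 CPM (SD, n = 8 each) and a log2 difference of -1.003 ± 0.22 (SE; adjusted p = 0.00094 in edgeR). The adjusted p was 0.056 with libraries numbered 1 to 3 alone and 0.11 with RNA concentration (log2) as a covariate, at log2 fold changes of -0.93 and -1.06. Prdm1 is also a gene of plasma cells, and the sum of 4 plasma cell markers was 1.29 to 4.61 CPM in Control gRNA against 1.64 to 6.27 CPM in Tardbp gRNA, with 0 of the 2 tested called and 1 at 0 in every library. The window around its start site is shown because its letters hold matches to motifs of other factors in this set. It runs from 250 bases before to 50 bases after the RefSeq start site, at chr10:44458699-44458998 on the minus strand of GRCm38.p6, and capitals mark the matches.
Prdm1 promoter: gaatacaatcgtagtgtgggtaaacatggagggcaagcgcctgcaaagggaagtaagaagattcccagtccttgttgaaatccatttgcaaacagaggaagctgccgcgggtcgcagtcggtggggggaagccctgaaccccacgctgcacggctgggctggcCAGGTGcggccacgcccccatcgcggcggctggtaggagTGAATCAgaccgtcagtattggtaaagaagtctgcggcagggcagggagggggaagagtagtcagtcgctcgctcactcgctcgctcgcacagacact
The run of capitals nearer the start site, at position -48, matches TGANTCA. This is a loose form of the motif of Bach2 and of the AP-1 family, in which N stands for any base, and the base there is A. On either strand 7.81% of 32851 such windows hold this loose form. The other run, at -87, matches CACCTG on the minus strand, the E-box that Zeb2 can bind, which 20.2% of the windows hold. These are matches of letters only.

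Zeb2 (chr2:44983632-45117395, minus strand), a repressor that works with T-bet in terminal effector cells, was the scarcest of the set. Its lowest, median and highest values were 1.125, 1.903 and 2.51 CPM in Control gRNA against 1.36, 2.87 and 4.68 CPM in Tardbp gRNA. The groups overlapped in the Tardbp gRNA libraries numbered 1 and 2, which lay at 1.36 and 1.41 CPM. The log2 difference of 0.64 ± 0.24 (SE; adjusted p = 0.036 in edgeR) was the call lost most often, in 14 of 28 alternatives. Leaving out a single library took the adjusted p to 0.05 or more in 10 of 16 cases, up to 0.11 without Tardbp gRNA number 7. The call was also lost with limma voom (adjusted p = 0.088), without a filter on low counts (0.061), in libraries numbered 1 to 3 alone (0.49) and with the RNA concentration as a covariate (0.33). Among the 14 that kept it, the edgeR adjusted p was 0.0092 in libraries numbered 4 to 8 alone. With the division into numbers 1 to 3 and 4 to 8 as a block it was 0.0094. Within numbers 4 to 8 every Tardbp gRNA library lay above every Control gRNA library. The same held for Eomes, Bcl6, Tcf7, Lef1, Bach2 and Tox, and the share of all genes that do so in these numbers was not computed. Zeb2 is also expressed by myeloid and NK cells. Over 9 myeloid markers the sum was 24.9 to 45.0 CPM in Control gRNA against 31.5 to 90.6 CPM in Tardbp gRNA. Of the 8 tested, 2 rose, against 23.5% of all genes tested, namely Lyz2 (log2 fold change 1.58) and S100a8 (2.56). S100a8 was scarce, with means of 0.195 and 1.14 CPM. Among the 8, 7 had a positive log2 fold change and Itgam a negative one (-0.57, not called). None of the myeloid markers was at 0 in every library. Their part in the Zeb2 result was not tested, and in bulk RNA fewer cells of a type and less RNA per cell cannot be told apart.

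Runx3 (chr4:135120652-135177990, plus strand), which silences Cd4 and opens effector genes in CD8+ cells, did not pass the test. It lay at 77.8, 85.0 and 113 CPM (lowest, median and highest) in Control gRNA against 60.4, 75.9 and 98.9 CPM in Tardbp gRNA, with wide overlap. The log2 fold change was -0.16 ± 0.10 (SE, edgeR adjusted p = 0.18). In libraries numbered 4 to 8 alone it was -0.24 ± 0.09 and passed (adjusted p = 0.045). In that subset 4 of 5 Tardbp gRNA libraries were below all 5 Control gRNA libraries.

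Eomes (chr9:118478212-118486132, plus strand), the T-box factor closest to Tbx21, showed a wide spread within Control gRNA, with an SD of 20.4 CPM around a mean of 26.1 CPM. In Control gRNA the libraries numbered 1, 2 and 3 held 62.9, 54.4 and 20.3 CPM, while those numbered 4 to 8 stayed between 12.03 and 15.97 CPM. In Tardbp gRNA the lowest, median and highest values were 33.7, 49.6 and 98.4 CPM, and the highest was again the library numbered 1. In numbers 4 to 8 every Tardbp gRNA library exceeded every Control gRNA library, as was so for each other factor that rose. The share of all genes that do so there was not computed. The Eomes means in these numbers were 44.7 ± 9.61 and 14.2 ± 1.65 CPM (SD, n = 5 each). In numbers 1 to 3 the groups overlapped, at 70.0 ± 24.7 and 45.8 ± 22.6 CPM (SD, n = 3 each). Over all 16 libraries the log2 fold change was 1.06 ± 0.35 (SE, edgeR adjusted p = 0.019). Without Tardbp gRNA number 1 it was 0.85 and the adjusted p rose to 0.057, and in libraries numbered 1 to 3 alone it was 0.58 (adjusted p = 0.40). With RNA concentration (log2) as a covariate it was 2.39 (adjusted p = 0.028). In libraries numbered 4 to 8 alone it was 1.65 (edgeR adjusted p = 4.6e-06). With the division into numbers 1 to 3 and 4 to 8 as a block it was 1.26 (edgeR adjusted p = 0.00021). Eomes is also a factor of NK cells, and the 4 NK markers together stayed at 0.551 to 2.999 CPM in Control gRNA against 0.972 to 4.03 CPM in Tardbp gRNA, with 0 of the 2 tested called.

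Whether the fold change itself differed between libraries numbered 1 to 3 and 4 to 8 was tested by an interaction term added after the values had been seen. For Eomes the log2 fold change was 1.04 ± 0.40 (SE) larger in numbers 4 to 8, with an unadjusted edgeR p of 0.019 and an adjusted p of 0.9997. None of the 16650 genes passed for this term (0%), while 558 genes, Eomes alone among the 10 factors, had an unadjusted p under 0.05. The labels do not say what distinguishes these numbers.

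On the memory side, Tcf7 (chr11:52252371-52283014, minus strand) encodes TCF-1, the factor that marks stem-like and memory precursor cells. Its values were 142, 161 and 231 CPM (lowest, median and highest) in Control gRNA against 239, 263 and 312 CPM in Tardbp gRNA. The lowest Tardbp gRNA library lay above the highest Control gRNA library. The means were 170 ± 30.5 and 264 ± 25.3 CPM (SD, n = 8 each), and the log2 fold change was 0.64 ± 0.09 (SE, edgeR adjusted p = 1.5e-05). Tcf7 and Bach2 were the 2 factors that passed in each of the 28 alternative fits, in which the log2 fold change of Tcf7 ran from 0.57 to 0.71. The window of the RefSeq start site nearest to its main transcript, at chr11:52282546-52282845 on the minus strand, is shown for comparison with that of Prdm1.
Tcf7 promoter: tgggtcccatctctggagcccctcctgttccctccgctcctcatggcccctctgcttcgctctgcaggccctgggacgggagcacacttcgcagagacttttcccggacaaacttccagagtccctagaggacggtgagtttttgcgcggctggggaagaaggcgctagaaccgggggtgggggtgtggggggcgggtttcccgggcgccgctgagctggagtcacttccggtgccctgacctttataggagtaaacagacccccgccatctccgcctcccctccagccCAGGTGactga
The capitals mark a match to CACCTG on the minus strand, 40 bases after the start. No match to CTTTGAT, the motif of Tcf7 and Lef1, lay in the window.

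Lef1 (chr3:131110471-131224356, plus strand), the partner of TCF-1 in the same DNA-binding family, was the other factor whose groups stood apart. It was measured at 101, 120 and 131 CPM (lowest, median and highest) in Control gRNA against 133, 152 and 163 CPM in Tardbp gRNA. The highest Control gRNA library lay just below the lowest Tardbp gRNA library. The means were 117 ± 10.9 and 150 ± 9.26 CPM (SD, n = 8 each), a log2 difference of 0.37 ± 0.06 (SE; adjusted p = 3.3e-05 in edgeR). With the RNA concentration as a covariate it was 0.29 and the adjusted p was 0.11, which was its only lost call.

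Bach2 (chr4:32238804-32586108, plus strand), a repressor that restrains effector genes and holds T cells in a quiescent or memory state, rose most. Its lowest, median and highest values were 2.89, 3.72 and 7.72 CPM in Control gRNA against 7.25, 10.3 and 14.0 CPM in Tardbp gRNA. Control gRNA number 5, at 7.72 CPM, was the only library of its group to reach the range of Tardbp gRNA, and the next highest was 4.36 CPM. The means were 4.21 ± 1.49 and 10.5 ± 2.31 CPM (SD, n = 8 each), and the log2 fold change was 1.32 ± 0.18 (SE, edgeR adjusted p = 1.0e-05), higher than that of 96.7% of all genes tested. Every one of the 28 alternative fits gave a call, with log2 fold changes of 1.197 to 1.4996. Its window in the RefSeq table, at chr4:32417185-32417484 on the plus strand, belongs to the downstream of its annotated starts and is shown because it carries a match to the motif of the repressor Bcl6.
Bach2 promoter: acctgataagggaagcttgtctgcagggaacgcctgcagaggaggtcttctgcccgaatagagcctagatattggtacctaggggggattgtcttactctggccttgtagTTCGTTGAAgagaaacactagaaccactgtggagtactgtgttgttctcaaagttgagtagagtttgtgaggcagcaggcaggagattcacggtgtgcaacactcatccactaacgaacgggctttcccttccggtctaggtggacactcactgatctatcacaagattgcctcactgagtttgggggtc
The match, in capitals at position -140, is to TTCNNNGAA, a pattern that STAT factors share with Bcl6 and that 8.3% of all windows hold.

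Across the 9 factors with a window, CACCTG was matched in 5 windows, TTCNNNGAA in 2, TGANTCA in that of Prdm1 and TGTGGT, the Runx motif, in that of Runx3. The T-box motif AGGTGTNA, the Tcf7 and Lef1 motif CTTTGAT and the Prdm1 motif GAAAGTG were matched in 0 of the 9, against 3.03%, 3.73% and 4.81% of all windows. TGTGGT was in 16.8% of them. No window was listed for Tox.

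Bcl6 (chr16:23965052-23988852, minus strand), the repressor that opposes Prdm1, lay at 2.50, 3.57 and 6.09 CPM (lowest, median and highest) in Control gRNA against 4.22, 6.72 and 9.71 CPM in Tardbp gRNA. The overlap came from Control gRNA numbers 4, 3 and 6, at 6.09, 4.32 and 4.28 CPM. The log2 fold change was 0.79 ± 0.18 (SE, edgeR adjusted p = 0.0012). It was 0.43 with the RNA concentration as a covariate and 0.56 in libraries numbered 1 to 3 alone, and neither passed (adjusted p = 0.51 and 0.17).

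B cells express Bcl6 and Bach2 as well. Of the 10 B cell markers, 8 were tested and 3 rose, with 0 lower, against 23.5% higher and 23.3% lower over all genes tested. Their median log2 fold change was 0.90. Ighm, the immunoglobulin mu gene, made up most of their sum, with means of 404 CPM in Control gRNA against 640 CPM in Tardbp gRNA, and Cd22 (11.3 and 21.2 CPM) and Ighd (1.71 and 5.28 CPM) were the other 2 that rose. Among those not called, Cd79b had means of 7.23 and 9.03 CPM, Blk 1.74 and 1.09 CPM, Cd79a 0.659 and 1.22 CPM, and Ms4a1 0.347 and 0.921 CPM. Pax5 and Fcer2a did not reach the filter on counts. None of the 10 was at 0 in every library. The part of these transcripts in the rise of Bcl6 and Bach2 was not tested.

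Tox (chr4:6686353-6991557, minus strand), an HMG-box factor of exhausted and memory cells, was higher by a modest amount. Values of 59.8, 65.5 and 81.9 CPM (lowest, median and highest) in Control gRNA stood against 63.3, 88.0 and 96.8 CPM in Tardbp gRNA. Among the 8 Tardbp gRNA libraries, 6 were above every Control gRNA library. The log2 fold change was 0.36 ± 0.08 (SE, edgeR adjusted p = 0.0017). It was 0.18 in libraries numbered 1 to 3 alone (adjusted p = 0.47) and 0.44 with the RNA concentration as a covariate (0.12).

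**Figure D2:**
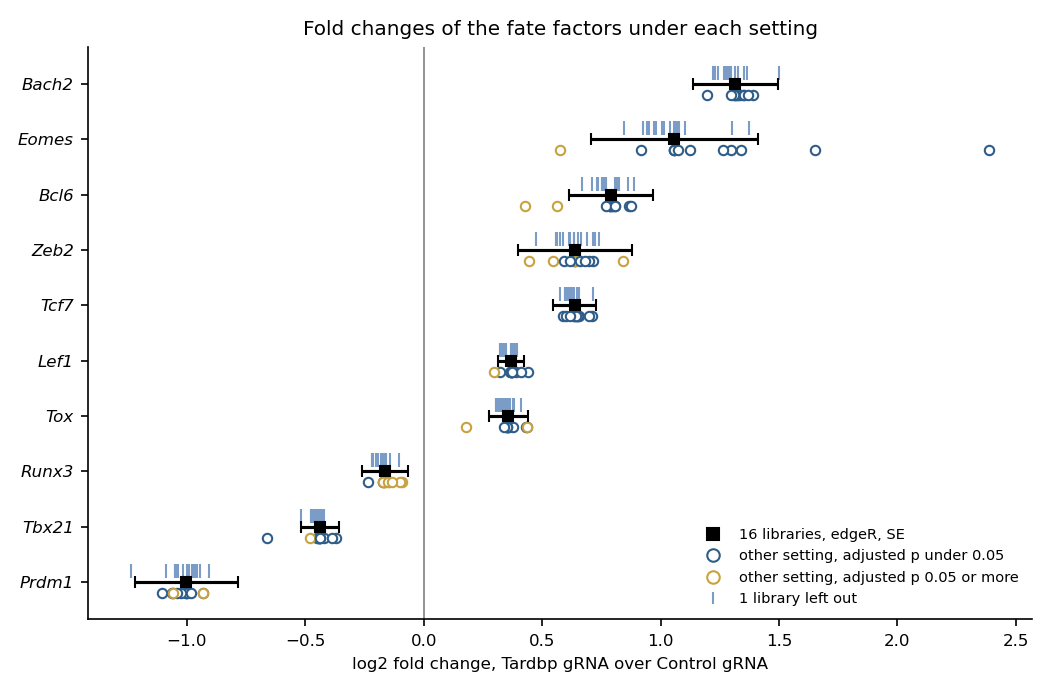
Log2 fold change of each factor, Tardbp gRNA over Control gRNA, with 0 as no difference. Black squares give the fit to 16 libraries with its SE, open circles the other settings, in gold where the adjusted p was 0.05 or more, and ticks the fits with 1 library left out. Bach2 and Tcf7 have no gold circle, and the circles of Eomes spread from 0.58 to 2.39.

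The letters M and F that the deposited sample sheet gives under the heading sex were unevenly spread, with 3 M and 5 F in Control gRNA and 5 M and 3 F in Tardbp gRNA. A term for a different fold change in M and F was called for 0 of the 10 factors and 0 of 16650 genes (0%) by edgeR, where 662 genes and 0 factors had an unadjusted p under 0.05. With the letter as a covariate the same 9 factors were called.

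Levels of different factors can be compared only per length of transcript, for which TPM, a length-scaled level relative to all transcripts of a library, was computed. In Control gRNA the mean levels fell in the order Tbx21 (225 TPM), Tcf7 (115), Lef1 (68.6), Runx3 (38.1), Tox (28.5), Eomes (12.6), Prdm1 (4.98), Bcl6 (1.80), Bach2 (0.996) and Zeb2 (0.577). The ranges over libraries of the neighbours Runx3 and Tox, Tox and Eomes, Eomes and Prdm1, Bcl6 and Bach2, and Bach2 and Zeb2 overlapped, and the other neighbours were apart. In Tardbp gRNA Tcf7 (170 TPM) stood before Tbx21 (159 TPM) and Bcl6 (2.98 TPM) before Prdm1 (2.49 TPM), with overlapping ranges for both of these pairs. Overlap was also seen there for Tox and Runx3, Runx3 and Eomes, and Prdm1 and Bach2. The abundant factors were thus still Tbx21, Tcf7 and Lef1, in another order.

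Ratios of the TPM levels of 2 factors within a library follow from these values and are given as a description, without a test. Tbx21 exceeded Tcf7 in 8 of 8 Control gRNA libraries, with ratios of 1.28 to 2.35, and in 3 of 8 Tardbp gRNA libraries, with ratios of 0.636 to 1.13. This pair was picked after the levels had been seen. The ratio of Bach2 to Prdm1 was 0.0885 to 0.345 (median 0.191) in Control gRNA against 0.386 to 1.70 (median 1.05) in Tardbp gRNA, in TPM again without overlap. TPM rests on the estimated transcript shares, which for Bach2 jumped between libraries. In CPM the ratios of the groups met. Control gRNA number 5 held 7.72 CPM of Bach2 and 14.2 CPM of Prdm1, and Tardbp gRNA number 1 held 7.25 and 13.4 CPM. Bcl6 stayed below Prdm1 in all 8 Control gRNA libraries (median ratio 0.340) and was above it in 5 of 8 Tardbp gRNA libraries (median 1.34). For Tcf7 over Prdm1 the medians were 24.2 and 76.6, and only the lowest Tardbp gRNA ratio, 34.6, fell within the Control gRNA range. Tbx21 over Eomes had medians of 27.3 and 7.36, and the Control gRNA libraries numbered 1 and 2 reached down into the Tardbp gRNA range. Tcf7 over Lef1 moved least, with medians of 1.57 and 2.12.

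**Figure D3:**
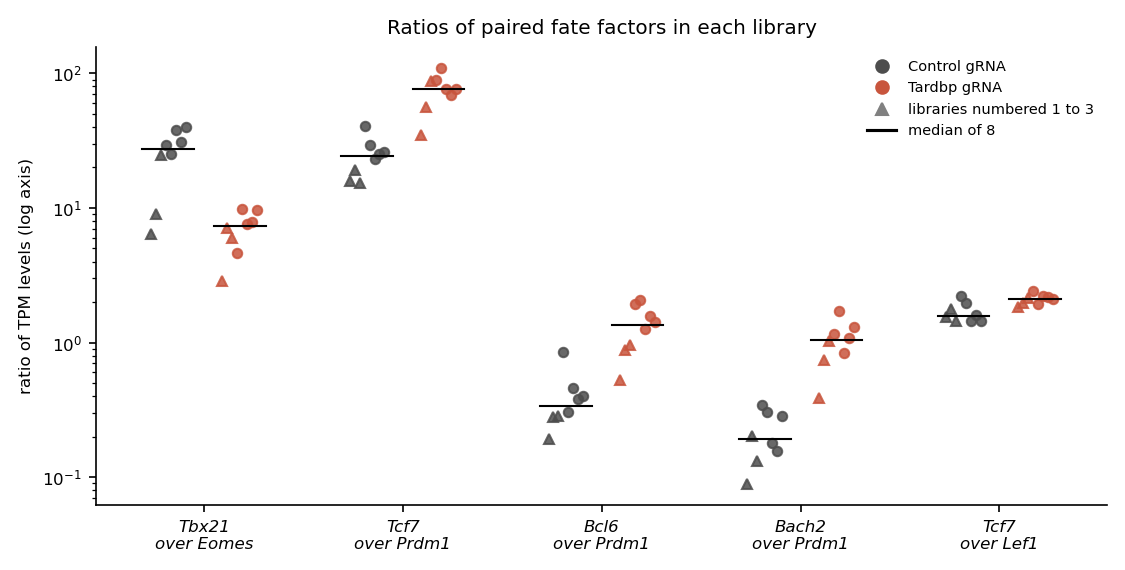
Ratio of the TPM levels of 2 factors in each library, on a log axis. Dark points are Control gRNA, red points Tardbp gRNA, triangles libraries numbered 1 to 3, and lines the median of 8 libraries. In TPM the groups do not overlap for Bach2 over Prdm1, with medians of 0.191 and 1.05, and overlap for the other pairs that contain Prdm1. In CPM the ratios of Bach2 over Prdm1 meet.

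The transcripts behind these levels were then examined. The 10 factors have 66 annotated transcripts, of which 26 had enough counts to test and 9 were called, 7 higher and 2 lower, against 16.6% of all transcripts tested. Those that rose were Tcf7-201, Lef1-201, Lef1-204, Bcl6-201, Eomes-203, Tox-201 and Tox-204, and Tbx21-201 and Prdm1-201 fell. Some of these calls depended on the setting. Tox-201 lost its call with RLE size factors (adjusted p = 0.076) and in DESeq2 (0.055). Tox-204, at means of 0.601 CPM in Control gRNA and 1.40 CPM in Tardbp gRNA, lost its call with a replicate block (edgeR adjusted p = 0.095). In libraries numbered 4 to 8 alone Lef1-201 (adjusted p = 0.12), Lef1-204 (0.063) and Prdm1-201 (0.084) did not pass. Eomes-203 held a mean of only 0.0277 and 0.0307 of the Eomes counts in Control gRNA and Tardbp gRNA. Eomes-201, the main transcript, had a log2 fold change of 0.99 over 16 libraries and was not called (edgeR adjusted p = 0.093). It passed in libraries numbered 4 to 8 alone (edgeR adjusted p = 0.00035). Tbx21 had a single annotated transcript, and Tcf7-201, Bcl6-201, Runx3-201 and Tox-201 each held at least 0.938 of the counts of their gene in every library, the lowest share being that of Tcf7-201.

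The share of each transcript in the counts of its gene was tested for 24 of these transcripts by limma. None passed an adjusted p under 0.05 together with a difference over 0.1, against 0.635% of all transcripts tested, and 4 had an unadjusted p under 0.05. Lef1-203, which starts downstream of Lef1-201 and has a coding length of 993 bases against 1191, had a mean share of 0.315 ± 0.105 in Control gRNA against 0.194 ± 0.0428 in Tardbp gRNA (SD, n = 8 each). The difference was -0.12 ± 0.04 (SE, limma adjusted p = 0.11). Lef1-201 took 0.580 ± 0.123 and 0.669 ± 0.0510 of the counts. The lowest adjusted p of the set was 0.077, for Lef1-204, whose share was 0.0361 ± 0.0102 and 0.0508 ± 0.00727. For Bach2 the estimated shares jumped between 0 and nearly 1 from library to library, with 0.726 ± 0.450 and 0.563 ± 0.384 for Bach2-207 (SD), so these data could not tell its upstream start from its downstream start. The kit does not mark strand, and genes on the opposite strand overlap Eomes, Lef1, Bach2, Bcl6, Tox and Zeb2. The largest of them held 2821 counts over all libraries (Gm33460) against 51033 for Eomes, and reads of such pairs cannot be told apart.

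Psi, the share of a gene's transcripts that use a given exon stretch or node, was deposited as 1 pooled value per group from Whippet, with no replicate error. The table does not name the groups. They were assigned from the text of the study, and 85 of 114 cassette exons moved the same way in the transcript counts, so a direction below rests on that assignment. Of 90 nodes in the 10 factors, 8 differed by over 0.1 between the groups, against 4.7% of all nodes in the table. All 8 were transcript starts or ends, in Eomes, Prdm1 and Zeb2, which were among the less abundant factors. In Eomes, the end node at chr9:118485367-118486132 stood at 0.577 in Control gRNA against 0.820 in Tardbp gRNA, and the nearer end at chr9:118484331-118485366 at 0.422 against 0.1798. Both lie in the last exon of Eomes-201. The shares estimated by StringTie did not differ beyond their spread, since Eomes-201, which has the far end, held 0.870 ± 0.0454 of the counts in Control gRNA and 0.871 ± 0.0434 in Tardbp gRNA (SD, n = 8 each). The start nodes of Eomes stood at 0.784 against 0.619 upstream and at 0.217 against 0.381 downstream. The upstream node lies in Eomes-202 alone, to which StringTie gave 0.102 of the counts in Control gRNA and 0.0985 in Tardbp gRNA. Psi and StringTie thus differed widely on the use of this start.

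In Prdm1 the upstream start node at chr10:44458688-44458748 stood at 0.346 in Control gRNA against 0.638 in Tardbp gRNA, and the node just downstream at 0.653 against 0.361, the widest differences of the set. The upstream node is the one that Prdm1-201 alone contains. Its estimated share of the Prdm1 counts was 0.716 ± 0.170 and 0.730 ± 0.194 (SD, n = 8 each), which did not differ beyond the spread. In Zeb2 the end nodes at chr2:44988334-44988400 and chr2:44988401-44988441 changed from 0.315 to 0.594 and from 0.456 to 0.269. No library values of Psi were used, so none of these differences has a test.

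**Figure D4:**
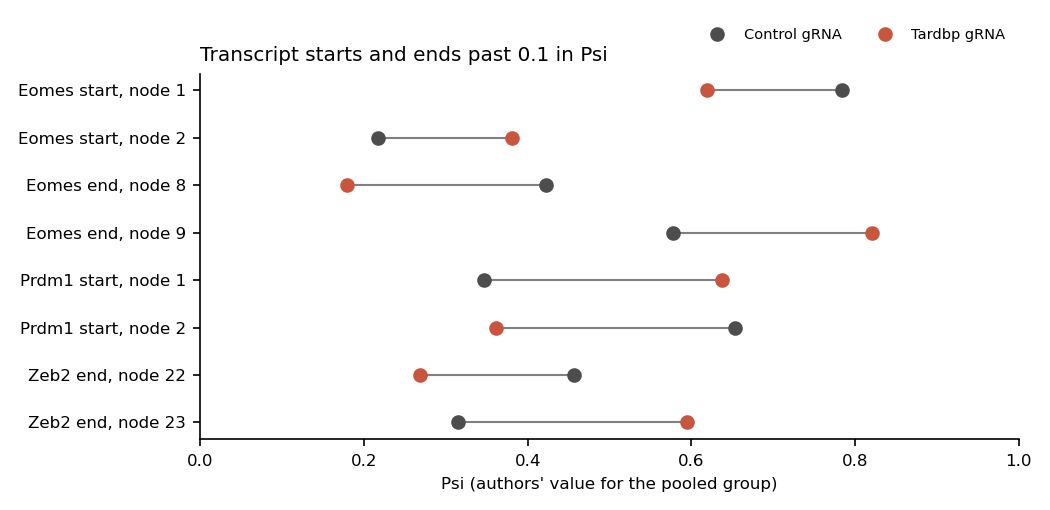
Psi of the 8 start and end nodes that differed by over 0.1 between the groups. Each row is a node, numbered as deposited, and the points are the pooled values of Control gRNA (dark) and Tardbp gRNA (red), with no replicate error. The widest gap is that of the Prdm1 start nodes, from 0.346 to 0.638.

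No inner node of the factors differed by over 0.1. Among them, 2 alternative coding stretches are shown because they change the protein and because their Psi was far from 0 and 1 (Tcf7) or differed the most of the inner nodes (Eomes). Eomes-201 contains 57 bases at the start of its last exon (chr9:118484274-118484330, plus strand), or 19 codons, that Eomes-202 lacks, and their Psi was 0.884 and 0.810. Tcf7 has an exon of 93 bases, or 31 codons (chr11:52258853-52258945, minus strand), present in both annotated transcripts, with a Psi of 0.482 and 0.508.
Eomes stretch: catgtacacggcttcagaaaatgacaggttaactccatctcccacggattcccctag
Tcf7 exon: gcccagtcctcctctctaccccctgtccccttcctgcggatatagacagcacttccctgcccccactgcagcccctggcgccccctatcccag
The pooled Psi of the Tcf7 exon thus differed little between groups whose Tcf7 levels did not overlap.

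The counts in the lists below stand against 23.5% higher and 23.3% lower over all genes tested. Other regulators of the same fates were counted from a list of 36 genes, of which 13 rose, 13 fell and 10 did not pass, with a median log2 fold change of -0.05. Those that rose included Id3 (log2 fold change 0.98), an inhibitor of E proteins that marks memory precursors, the receptor-induced factor Nr4a1 (0.88) and Ikzf2 (0.75). Stat5b (-0.72), which relays interleukin 2 signals, Satb1 (-0.64) and Rora (-0.62) fell. Batf3 (-2.04) and Tox2 (1.68), named after their values were seen because they lie under the level limit for naming, had the widest changes of the list. Of 15 cofactors that act with the 10 factors, 1 rose and 4 fell, with a median of -0.08. Tle4 (0.74), a corepressor of TCF-1 and LEF-1, alone rose. Its relative Tle1 fell the most of the list, at a log2 fold change of -2.05 and means of 6.32 and 1.53 CPM (edgeR adjusted p = 3.5e-06), and is named after its value was seen because its level lies under the limit set for naming. Ctnnb1 (-0.40), which encodes beta-catenin, Bcor (-0.33), a corepressor of Bcl6, and Hdac1 (-0.09) were among those that fell.

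Genes of effector, naive, memory and exhausted cells did not move to 1 side alone. Of 20 effector genes, 6 rose and 7 fell, with a median log2 fold change of 0.13, where 23.5% of all genes tested were higher and 23.3% lower. Ccl5 (3.45), Ifng (1.30) and Gzma (0.83), products of effector cells, were higher, and the cytokine receptor genes Il12rb2 (-1.96), Il2ra (-0.97) and Il18rap (-0.64) were lower. Of 16 naive and memory genes, 10 rose and 3 fell, with a median of 0.48. Dapl1 (1.07) and Il6ra (0.77) were among those that rose, while Il7r (-0.51), Actn1 (-0.32) and Ccr7 (-0.22) fell. Of 10 inhibitory receptors and related genes, 8 rose, among them Tigit (0.92), Cd160 (0.60) and Lag3 (0.56), and Pdcd1 (-0.20) alone fell. Their median was 0.41.

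**Figure D5:**
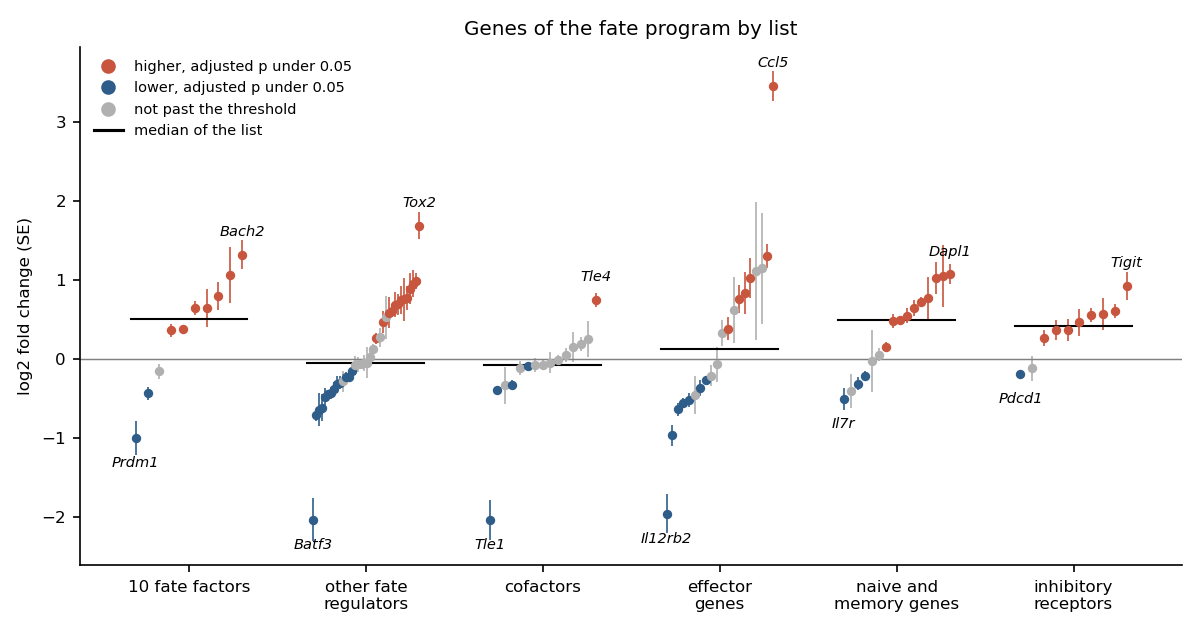
Log2 fold change with its SE for each tested gene of 6 lists, in rising order within a list. Red points are higher and blue points lower at an edgeR adjusted p under 0.05, grey points did not pass, and lines give list medians, which run from -0.08 for the cofactors to 0.50 for the 10 factors.

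Likeness between genes within the groups was described by the root mean square distance of their log2 CPM, centred in each group and set to unit SD, over 16 libraries and 8976 genes whose mean log2 CPM reached 3. The gene nearest to Eomes was Samd3, at 0.147, much closer than the nearest gene of any other factor (0.399 to 0.570). Nearest to Tcf7 was Ucp2 (0.399) and nearest to Bach2 was Acss1 (0.461). Within the set, Tcf7 and Bach2 were each other's nearest factor (0.514), followed by Bcl6 and Tox (0.843), Eomes and Prdm1 (0.888) and Tbx21 and Runx3 (0.943). These distances describe how libraries of a group varied together and carry no test.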

How the data were processed

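RNA of sorted CD8+ T cells was made into 16 libraries, 8 per group, with SMART-Seq v4 and Nextera XT. The authors, per the labels and methods, mapped paired reads to mm10 (HISAT2 2.1.0, SAMtools 1.9), and StringTie 2.1.0 gave their estimated counts for genes and transcripts. The submitters' processing notes also name R 4.0.5 and DESeq2 1.30.1. The deposited estimated counts were whole numbers and not normalized. The authors also ran Whippet and deposited Psi, a fraction per pooled group. Which Psi column belongs to which group was read from the study's text. Of 114 cassette exons that moved by over 0.1 in Psi and in inclusion rebuilt from the transcript counts, 85 moved the same way. The deposited table also holds the difference of Psi and its probability, which were not used, so the planned thresholds on probability gave way to the size of the difference. Read pair counts deposited by the sequencing facility, RNA concentrations and the letters M and F were read from the deposited annotation. In each count table, 10 columns that match no sample were not used.

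The gene test was that of edgeR 4.0.16 in R 4.3.3 (quasi-likelihood, two-sided, TMM, filterByExpr by group with a minimum count of 10, a minimum total of 15 and a proportion of 0.7) over all 16 libraries without covariates, at a Benjamini-Hochberg adjusted p under 0.05. Transcripts were tested likewise, and shares of transcripts with limma 3.58.1 for genes with 2 or more kept transcripts. TPM came from transcript counts divided by GENCODE M21 lengths. Promoter windows came from RefSeq (GRCm38.p6). Names and coordinates came from GENCODE M21. Totals of 56016533 to 94801105 counts per library include PCR copies, since no molecular identifiers were used. On simulated data with 200 changed genes among 16366, the gene test recovered 51.6% at a fold of 1.5, 81.5% at 2 and 93.0% at 4. The transcript test, with 200 changed as well, recovered 0%, 8.77% and 49.4% among 39690 transcripts. In the data 7783 genes and 6805 transcripts were called, far more than were changed in the simulation, so these rates need not hold for this comparison.

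The factors and lists were chosen with earlier results of these data known. Of each list, the called genes at both ends of the fold changes were named, 3 at each end, where their mean log2 CPM reached 3. Some list genes are not reported here. The pair of Tbx21 and Tcf7 and the interaction with library numbers were added after the data had been seen. Alternatives covered scaling, tool (DESeq2 1.42.0, limma voom), filter, covariates, blocks, subsets of libraries and each library left out.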

Additional observations from a re-analysis of the deposited data

Results flagged for a closer look

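In 4 of 20 sets of 8 values (10 factors, 2 groups), the sample farthest out stood apart from the next by more than Dixon's critical share of the range, where chance gives about 1 in 20. Tardbp gRNA number 1 was the highest of its group for Eomes, at 98.4 CPM, and for Prdm1, at 13.4 CPM. Control gRNA number 5 was the highest of its group for Bach2, at 7.72 CPM, and Control gRNA number 2 for Runx3, at 113 CPM. Their causes were not tested.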

How the results depend on the processing

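The direction of all 10 factors held in each of the 28 alternative fits, and 254 of these results kept their side of the threshold, 24 lost a call and 2 gained one. The number of genes called, 7783, was 1696 in libraries numbered 1 to 3 alone and 2697 with RNA concentration (log2) as a covariate, and the number of factors called, 9, was 3 and 4 there. With 1 library left out, 7265 to 7734 genes and 8 to 9 factors were called. Eomes lost its call without Tardbp gRNA number 1, and Zeb2 lost its call in 10 of the 16 such fits. With a replicate block 7645 genes and 10 factors were called, Runx3 at an adjusted p of 0.044. Over all genes, single numbers gave little sign of pairing the libraries, though the replicate block lowered the SE of most factors. That of Tbx21 was 0.080 without the block and 0.049 with it, and that of Lef1 0.057 and 0.056. The correlation of same-numbered deviations ran from -0.005 to 0.160, and 2 of 8 libraries correlated best with their own number. The division into numbers 1 to 3 and 4 to 8 was nevertheless shared by both groups. It showed on the main axis of variation within groups (first principal component, 11.6%). Libraries numbered 1 to 3 scored -50.7 (Control gRNA number 1) to -10.1 (Control gRNA number 3). Those numbered 4 to 8 scored 13.1 (Tardbp gRNA number 7) to 33.9 (Control gRNA number 4), apart from Tardbp gRNA number 8 at -1.38. Lowering the Psi difference to 0.05 gave 13 nodes in place of 8. Thresholds on the Psi probability were not run. The RNA concentration differs between the groups without overlap, so the covariate and the guide cannot be told apart. Otherwise the cause of these changes was not tested. Zeb2 rested on 83 to 362 estimated counts per library, and the effect of depth was not tested. Estimated counts exceeded the read pairs in every library, at 56016533 against 29714709 in Tardbp gRNA number 8. A count is thus not a separate read pair. Of the transcripts, 7 to 10 were called over the alternatives.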
